A study of Homo sapiens with 12 samples.

Results

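The miRNAs described here are the products of 1 cluster on human chromosome X: hsa-miR-424-5p, hsa-miR-424-3p, hsa-miR-503-5p, hsa-miR-542-3p, hsa-miR-542-5p, hsa-miR-450a-5p and hsa-miR-450b-5p. They were chosen by name, 7 of the 2588 mature miRNAs in the deposited count table, with earlier results of these data known. Small RNA was sequenced from extracellular vesicles (EVs, small membrane-bound particles that cells release) and from the cells that released them, in 6 groups of 2 libraries. The cells were derived from MDA-MB-231, an established human breast cancer line with mesenchymal features. The Rab27a KD line carried a stable lentiviral short hairpin RNA against RAB27A, which encodes a GTPase needed for the docking of vesicle-bearing compartments at the plasma membrane, and it is 1 hairpin clone. The miR-122 KO line was made with Cas9 and 2 guides against the gene of hsa-miR-122. The CTRL line carried the empty hairpin vector, so the labels give it as a vector control for the knockdown, and no Cas9 control is named for the knockout. All 3 lines were grown with 10% fetal bovine serum and then moved to medium that held 1% bovine serum albumin and no serum. EVs were pelleted from this medium by ultracentrifugation after 24 h, when the cells were collected too. The labels number the replicates 1 and 2 without saying whether these were separate cultures, so the p-values below measure only the spread between these libraries, which may be technical.

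Mature miRNAs guide Argonaute proteins to messenger RNAs that pair with the seed, bases 2 to 8 of the miRNA, and these messages are then repressed. A hairpin can give a miRNA from each arm, named 5p and 3p, and usually 1 arm is kept far more than the other. The 5p arms of miR-424 and miR-503 belong to the extended miR-15/16 family, which represses cyclins and other drivers of the cell cycle. In the mouse mammary gland the homologous pair, miR-322 and miR-503, takes part in the involution of the gland after lactation. miR-542-3p is known for repressing BIRC5, the survivin gene.

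The 6 hairpins lie on the minus strand of chromosome X within 6527 bases, at chrX:134540185-134546711 in GRCh38.p14 as annotated by RefSeq. The submitters' processing notes name another build, hg19, so these positions are RefSeq's and not the files'. Read in the direction of transcription, the order is MIR424 (chrX:134546614-134546711), MIR503 (chrX:134546328-134546398), MIR542 (chrX:134541341-134541437), MIR450A2 (chrX:134540508-134540607), MIR450A1 (chrX:134540341-134540431) and MIR450B (chrX:134540185-134540262). MIR424 and MIR503 are 215 bases apart, and MIR542 begins 4890 bases beyond MIR503. MIR503 lies within the long noncoding RNA gene MIR503HG (chrX:134543377-134546630), which also covers part of MIR424. miR-450a-5p is made from both MIR450A1 and MIR450A2, whose 5p arms have the same letters, so its counts cannot be assigned to 1 of them. The RefSeq table gave mature sequences for 6 of the 7 members. They are shown 5′ to 3′ because seed and base composition both bear on the comparisons below, with the seed in capitals.
miR-424-5p: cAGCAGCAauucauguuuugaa
miR-503-5p: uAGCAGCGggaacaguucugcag
miR-424-3p: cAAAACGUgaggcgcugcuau
miR-542-5p: uCGGGGAUcaucaugucacgaga
miR-450a-5p: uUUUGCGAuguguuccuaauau
miR-450b-5p: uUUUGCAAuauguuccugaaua
Some of these seeds fall into near pairs, and those of miR-424-3p and miR-542-5p do not. With positions counted from 1 at the 5′ end, the seeds of miR-424-5p and miR-503-5p differ by 1 substitution (A8G), and those of miR-450a-5p and miR-450b-5p also by 1 (G7A). All 6 listed miR-15/16 relatives share the seed of miR-424-5p. The most abundant of them, miR-16-5p, and its cluster partner miR-15a-5p are shown for comparison.
miR-16-5p: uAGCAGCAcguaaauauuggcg
miR-15a-5p: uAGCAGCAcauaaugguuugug
Over the length of miR-424-5p, miR-503-5p and miR-16-5p each matched it at 12 of 22 positions and miR-15a-5p at 15 of 22. The MIR424 hairpin holds both arms that were counted, in capitals, with the 5p arm first.
MIR424: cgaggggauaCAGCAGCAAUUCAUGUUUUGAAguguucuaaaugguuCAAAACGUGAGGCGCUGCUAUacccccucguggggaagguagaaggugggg
GC content was 27.3% for miR-450b-5p, 31.8% for miR-450a-5p, 36.4% for miR-424-5p, 52.2% for miR-542-5p, 52.4% for miR-424-3p and 56.5% for miR-503-5p.

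Total counts ran from 164656 to 11840597 per library, and the 2 Rab27a KD EV libraries, with 164656 and 170366, were the shallowest. In them 1 count is worth 6.07 and 5.87 CPM, the count scaled by the library total, so their values for the rarer members rest on few counts. Every interval or lower bound computed from counts describes counting error alone. Taken over many miRNAs at once, libraries of a group differed by more than that. The chi-square per degree of freedom, a measure of spread against counting error, was 211 in miR-122 KO cells and 31.8 in CTRL cells. Its lowest value was 8.75, in Rab27a KD EVs. CPM is a share of the library, so fewer vesicles or cells and less RNA in each cannot be told apart. The knockout's target, miR-122-5p, a liver miRNA, had 39 and 40 counts in Rab27a KD cells and 0 and 0 in miR-122 KO cells, against 5 and 4 in CTRL cells. As a mean this was 12.5 ± 0.278 CPM in Rab27a KD cells and 0.392 ± 0.043 CPM in CTRL cells (SD, n = 2), so the check of the knockout in cells rests on few counts. In EVs it had 7 and 5 counts (35.9 ± 9.31 CPM) in the Rab27a KD line and 4 and 3 (1.01 ± 0.0834 CPM) in the miR-122 KO line, against 790 and 651 (291 ± 56.7 CPM) in the CTRL line. The EV values do not check the knockout, because Rab27a KD EVs were also below CTRL EVs. RAB27A is a messenger RNA and was not measured. The 6 miRNAs listed as abundant in MDA-MB-231 were found in every library and together made up 503488 to 725604 CPM as group means, and the 5 listed epithelial miRNAs together 136 to 421 CPM. The 9 listed markers of blood and serum, miR-122-5p among them, summed to 148 to 282 CPM in the Rab27a KD and miR-122 KO EV libraries, against 11834 and 10118 CPM in CTRL EVs, and to 122.5 to 285 CPM in cells. In Rab27a KD EVs miR-144-5p, miR-150-5p and miR-223-3p were at 0, while all 9 were found in miR-122 KO and CTRL EVs. The 5 stromal markers summed to 27.8 to 115 CPM in the modified lines' EV libraries, against 3183 and 3315 CPM in CTRL EVs, and the 2 endothelial markers to 129 to 276 CPM, against 2966 and 2648 CPM in CTRL EVs. These sums move with every comparison that includes CTRL EVs, and their part in those results was not tested.

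Within the cluster, miR-424-5p, miR-503-5p and miR-542-3p made up most of the counts in every library. In CTRL cells they held 34.5% ± 0.434, 34.0% ± 0.245 and 18.1% ± 0.449 of the cluster's counts (SD, n = 2). The summed level of the 7 members was 2183 ± 158 CPM in Rab27a KD EVs, 1502 ± 14.5 CPM in miR-122 KO EVs and 2166 ± 87.6 CPM in CTRL EVs. In cells it was 1653 ± 22.9 CPM for the Rab27a KD line, 1273 ± 59.95 CPM for the miR-122 KO line and 3119 ± 21.4 CPM for the CTRL line. miR-542-3p held 18.2% ± 5.42 of the cluster in EVs and 16.5% ± 0.417 in cells of the Rab27a KD line, 16.7% ± 0.101 and 41.4% ± 1.29 in the miR-122 KO line, and 19.7% ± 0.634 and 18.1% ± 0.449 in the CTRL line. miR-424-5p held 26.5% ± 6.33 in EVs and 36.3% ± 0.0436 in cells of the Rab27a KD line, 22.2% ± 1.16 and 15.7% ± 0.254 in the miR-122 KO line, and 22.4% ± 2.72 and 34.5% ± 0.434 in the CTRL line.

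**Figure D1:**
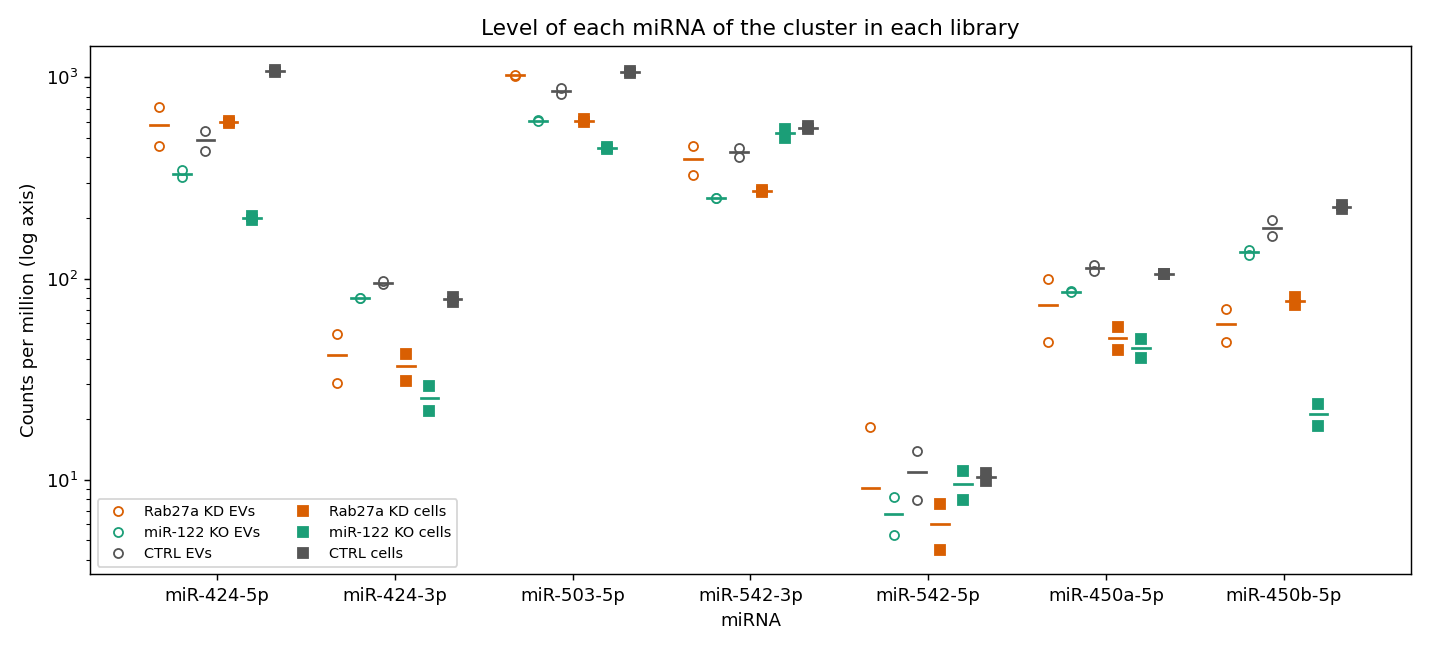
Level of each cluster miRNA in CPM, on a log axis. Open circles are EV libraries, filled squares cell libraries, short lines group means, and colours mark the line; a library with 0 counts (miR-542-5p, 1 Rab27a KD EV library) is not drawn. In miR-122 KO cells miR-424-5p averaged 200.1 CPM and miR-450b-5p 21.1 CPM, the lowest of the 6 groups for both.

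Lines were compared with edgeR's quasi-likelihood test over all miRNAs that passed the filter on low counts, with TMM scaling, which assumes that most miRNAs do not differ between libraries, and Benjamini-Hochberg adjusted p-values. A difference is called where the adjusted p is under 0.05. The 2 comparisons with CTRL share its libraries, as do all comparisons of a fraction, so they are not independent of each other. All 7 members passed the filter in every comparison.

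In Rab27a KD cells all 7 members fell against CTRL cells. Over all 613 miRNAs tested in this comparison 53.8% were called, 29.5% as lower and 24.3% as higher, and the members' median log2 fold change was -1.03 against -0.11 for all miRNAs. The 330 calls over all miRNAs became 196 without the first and 218 without the second Rab27a KD cell library. In miR-122 KO cells 5 members fell and the 2 arms of miR-542 did not pass the test, with 62.3% of all miRNAs called, 34.6% as lower and 27.7% as higher. The members' median log2 fold change there was -0.91, against -0.08 for all miRNAs.

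The seed family arms come first. miR-424-5p, which carries the miR-15/16 seed, had 594 and 607 CPM in Rab27a KD cells and 196 and 204 CPM in miR-122 KO cells, against 1060 and 1089 CPM in CTRL cells. The groups did not overlap, and the knockout cells were lowest. The log2 fold change was -0.83 (SE 0.12, edgeR adjusted p = 7.01e-06) in Rab27a KD cells and -2.08 (SE 0.12, adjusted p = 1.31e-11) in miR-122 KO cells. miR-503-5p, the other arm of this family in the cluster, had 598 and 620 CPM in Rab27a KD cells and 449 and 441 CPM in miR-122 KO cells, against 1050 and 1071 CPM in CTRL cells. It fell by 0.79 (SE 0.12) and 0.91 (SE 0.12) on the log2 scale in the knockdown and the knockout, again without overlap (edgeR adjusted p = 1.82e-05 and 2.42e-06). In CPM the miR-503-5p libraries of the knockout also lay below those of the knockdown. The direct edgeR comparison of these 2 lines did not call it (-0.12, adjusted p = 0.395).

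miR-424-3p, the opposite arm of the MIR424 hairpin, had 31.0 and 42.3 CPM in Rab27a KD cells and 21.9 and 29.3 CPM in miR-122 KO cells, against 76.9 and 80.7 CPM in CTRL cells. In CPM both lines lay below CTRL without overlap, the knockout lowest. Knockout and knockdown did not differ by a call when compared directly (-0.20, edgeR adjusted p = 0.336). The log2 fold changes were -1.09 (SE 0.18) and -1.29 (SE 0.17), with edgeR adjusted p = 2.21e-05 and 1.07e-06.

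Of the arms of miR-542, the 3p arm divided the lines, and the call of the rare 5p arm was lost under many alternatives. miR-542-3p, known for repressing survivin, had 275 and 270 CPM in Rab27a KD cells and 498 and 556 CPM in miR-122 KO cells, against 570 and 556 CPM in CTRL cells. Only the knockdown cells stood apart, at a log2 fold change of -1.03 (SE 0.12, edgeR adjusted p = 3.74e-07). In miR-122 KO cells the log2 fold change was 0.24 (95% interval 0.01 to 0.47, adjusted p = 0.0775), although the CPM are lower than in CTRL, since TMM scaling and scaling to total counts differed here. With total counts the value was -0.10 (adjusted p = 0.455). It was called higher with DESeq2 (0.34, adjusted p = 0.00182), with DESeq2's size factors in edgeR (0.34, adjusted p = 0.0106) and without the second miR-122 KO cell library (0.28, adjusted p = 0.00303). miR-542-5p was the rarest member, at 24 and 14 counts in Rab27a KD cells and 81 and 108 counts in miR-122 KO cells, against 116 and 119 counts in CTRL cells. Its log2 fold change in Rab27a KD cells was -0.75 (SE 0.30, edgeR adjusted p = 0.0414). That call was lost with either scaling alternative, with DESeq2 (-0.63, adjusted p = 0.187), with 6 other settings and without the first CTRL cell library (-0.82, adjusted p = 0.0681), the second CTRL cell library (-0.63, adjusted p = 0.201) or the second Rab27a KD cell library (-0.39, adjusted p = 0.386). In miR-122 KO cells miR-542-5p had a log2 fold change of 0.21 (95% interval -0.24 to 0.67, adjusted p = 0.443), and -0.12 with total counts.

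The arms of miR-450, whose seeds differ by 1 base, fell in both lines. miR-450a-5p had 57.3 and 44.3 CPM in Rab27a KD cells and 40.2 and 50.02 CPM in miR-122 KO cells, against 105 and 105 CPM in CTRL cells. The groups did not overlap with CTRL, and the log2 fold change was -1.03 (SE 0.16) in the knockdown and -0.88 (SE 0.15) in the knockout (edgeR adjusted p = 1.97e-05 and 4.69e-05). miR-450b-5p had 74.1 and 80.9 CPM in Rab27a KD cells and 18.4 and 23.9 CPM in miR-122 KO cells, against 232 and 221 CPM in CTRL cells. No library of either line came near a CTRL library. In Rab27a KD cells it was 2.90-fold lower, with a log2 fold change of -1.53 (SE 0.14, edgeR adjusted p = 1.75e-08). It was 8.51-fold lower in miR-122 KO cells, at -3.09 (SE 0.15, adjusted p = 4.76e-13).

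**Figure D2:**
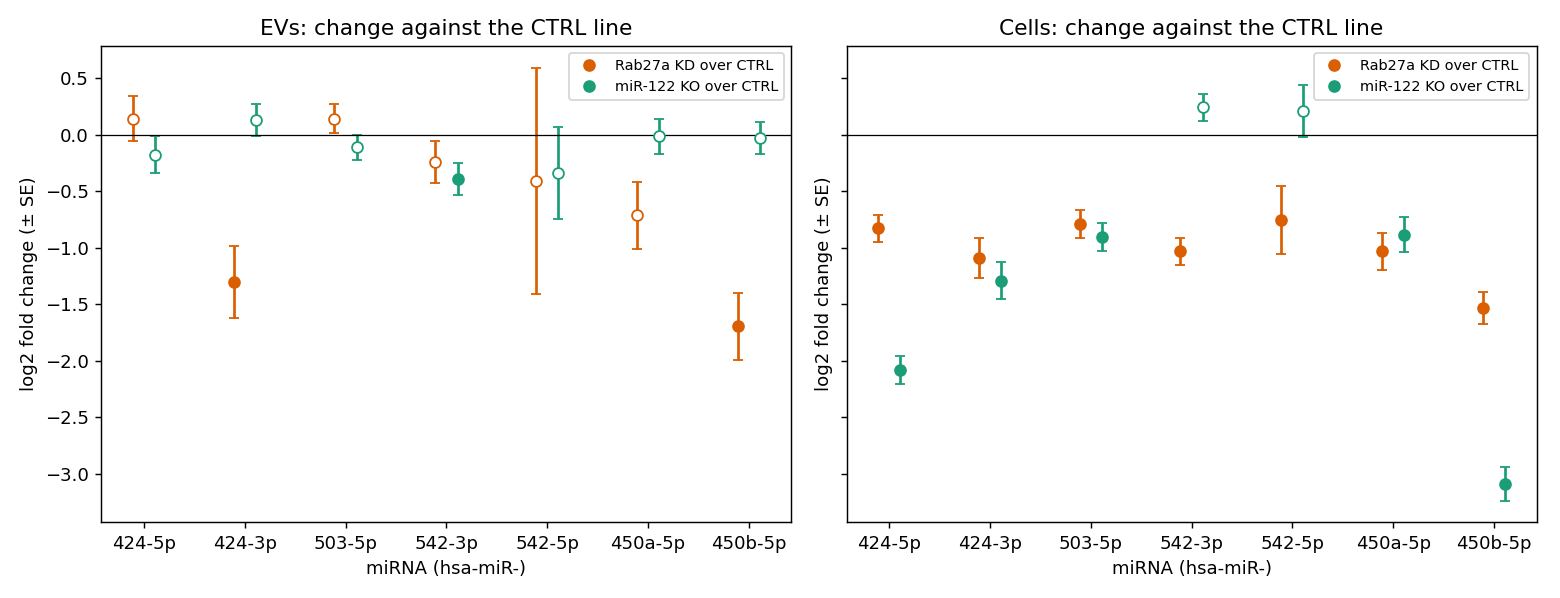
Log2 fold change of each cluster miRNA in the Rab27a KD and miR-122 KO lines over the CTRL line, in EVs (left) and in cells (right). Bars are the standard error of the edgeR fit and filled points have an adjusted p under 0.05. In cells 12 of the 14 points are filled and lie under 0, and in EVs 3 are filled.

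Base composition moved with the knockout result. Across the 535 tested miRNAs with a RefSeq sequence, 87.3% of those tested, Spearman's rho between GC content and the log2 fold change of miR-122 KO over CTRL cells was 0.449, against 0.00719 for Rab27a KD over CTRL cells. miRNAs share libraries, so the rho values are descriptions. The 37 miRNAs with a GC content of 32% or less, among them miR-450a-5p and miR-450b-5p, had a median log2 fold change of -2.20 in miR-122 KO cells, and the 111 above 60% had a median of 0.52. With a smooth GC trend removed from each library, 4 of the 5 called members were still called lower in miR-122 KO cells. These were miR-424-5p at -1.06 (adjusted p = 7.5e-07), miR-503-5p at -1.12 (adjusted p = 7.5e-07), miR-424-3p at -1.41 (adjusted p = 3.77e-06) and miR-450b-5p at -1.13 (adjusted p = 3.68e-06). miR-450a-5p turned to a log2 fold change of 0.60 (adjusted p = 0.00202). miR-542-3p has no value in that fit. In Rab27a KD cells the same fit kept 5 of the 6 members with a sequence called lower. There miR-542-5p lost its call (-0.66, edgeR adjusted p = 0.0786). The fit moved miR-450b-5p from -1.53 to -0.97, miR-450a-5p from -1.03 to -0.64 and miR-424-5p from -0.83 to -0.62. The rho of 0.00719 therefore does not show that the knockdown comparison was free of a GC trend. The shares called over all miRNAs given above belong to the fit with the GC trend kept. The member counts with the trend removed are therefore not set against a background. The rho was 0.169 for Rab27a KD and 0.171 for miR-122 KO over CTRL EVs. For EVs over cells it was -0.372 in the miR-122 KO line, 0.061 in the Rab27a KD line and -0.0559 in the CTRL line. What makes the libraries differ by GC content was not tested.

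**Figure D3:**
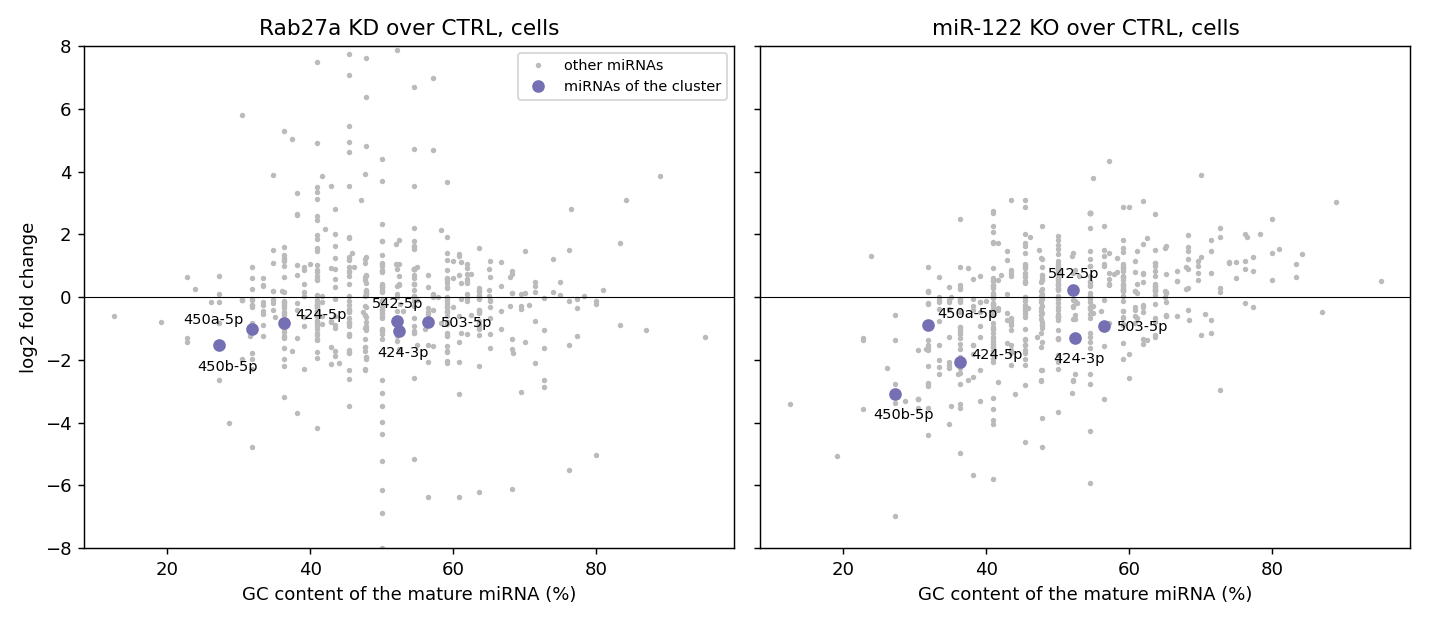
Log2 fold change against GC content (%) of the mature miRNA for Rab27a KD over CTRL cells (left) and miR-122 KO over CTRL cells (right). Grey points are other miRNAs (3 lie outside the axis on the left, none on the right) and labelled points are the 6 cluster miRNAs with a RefSeq sequence. On the right the cloud rises with GC content (rho 0.449), with miR-450b-5p (27.3% GC) at -3.09 and miR-424-5p (36.4% GC) at -2.08.

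Set directly against each other, miR-122 KO cells differed from Rab27a KD cells in 4 members, with 64.4% of all miRNAs called, 30.7% as higher and 33.8% as lower. miR-542-3p was higher in miR-122 KO cells by 1.28 (SE 0.12, edgeR adjusted p = 1.23e-08) on the log2 scale and miR-542-5p by 0.96 (SE 0.30, adjusted p = 0.00923). The miR-542-5p call was lost without the second Rab27a KD cell library (0.50, adjusted p = 0.23) and with total counts (0.65, adjusted p = 0.106). miR-424-5p was lower in miR-122 KO cells by a log2 fold change of -1.26 (SE 0.12, adjusted p = 1.8e-08) and miR-450b-5p by -1.56 (SE 0.15, adjusted p = 1.98e-08). With the GC trend removed, miR-450b-5p was at -0.16 (adjusted p = 0.332) and miR-424-5p at -0.45 (adjusted p = 0.00189). The other 3 members had log2 fold changes between -0.20 and 0.15.

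Against CTRL EVs, 2 members fell in Rab27a KD EVs, where 46.3% of 488 miRNAs were called, 27.5% as lower and 18.9% as higher. In miR-122 KO EVs 1 member fell, where 41.2% were called, 22.3% as lower and 18.9% as higher. Those 201 calls became 127 without the second CTRL EV library. The CTRL EV libraries are those with the high sums of blood, stromal and endothelial markers. miR-450b-5p had 48.6 and 70.4 CPM in Rab27a KD EVs and 139 and 131 CPM in miR-122 KO EVs, against 194 and 163 CPM in CTRL EVs. The knockdown libraries hold 8 and 12 counts of it and lie below all other EV libraries. Its log2 fold change was -1.70 (SE 0.30, edgeR adjusted p = 0.000423) in Rab27a KD EVs and -0.03 (95% interval -0.31 to 0.26, adjusted p = 0.916) in miR-122 KO EVs. Its value in Rab27a KD EVs was -0.88 (adjusted p = 0.0151) with the GC trend removed. miR-424-3p had 5 and 9 counts in Rab27a KD EVs, which is 30.4 and 52.8 CPM, and 80.4 and 80.2 CPM in miR-122 KO EVs, against 93.8 and 96.7 CPM in CTRL EVs. It fell by 1.30 (SE 0.32, adjusted p = 0.00476) on the log2 scale in Rab27a KD EVs, a call that was lost without the first of the knockdown libraries (-1.06, adjusted p = 0.0621). In miR-122 KO EVs its log2 fold change was 0.13 (95% interval -0.14 to 0.40), and -0.25 with total counts.

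The 2 abundant arms of the miR-15/16 family did not pass the test in EVs of either line. miR-424-5p had 455 and 710 CPM in Rab27a KD EVs and 318 and 347 CPM in miR-122 KO EVs, against 542 and 431 CPM in CTRL EVs. The knockdown libraries lay on both sides of CTRL, and the knockout libraries lay below both. The log2 fold changes were 0.14 (95% interval -0.25 to 0.54, edgeR adjusted p = 0.605) and -0.17 (95% interval -0.50 to 0.15, adjusted p = 0.448). miR-503-5p had 1014 and 1033 CPM in Rab27a KD EVs and 612 and 608 CPM in miR-122 KO EVs, against 825 and 886 CPM in CTRL EVs. These groups did not overlap in CPM, yet the log2 fold changes were 0.14 (95% interval -0.11 to 0.39, adjusted p = 0.386) and -0.11 (95% interval -0.33 to 0.11, adjusted p = 0.489). Scaling to total counts moved every log2 fold change of miR-122 KO over CTRL EVs by about -0.37, and miR-503-5p was then called lower at -0.49 (adjusted p = 0.00226), as were miR-424-5p at -0.55 (adjusted p = 0.0126), miR-450a-5p at -0.39 (adjusted p = 0.0442) and miR-450b-5p at -0.40 (adjusted p = 0.0268). With the GC trend removed, miR-424-5p (0.84, adjusted p = 0.000916) and miR-503-5p (0.44, adjusted p = 0.0079) were called higher in Rab27a KD EVs.

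miR-542-3p had 455 and 329 CPM in Rab27a KD EVs and 250.1 and 251 CPM in miR-122 KO EVs, against 448 and 404 CPM in CTRL EVs. It was the member called lower in miR-122 KO EVs, by a log2 fold change of -0.39 (SE 0.14, edgeR adjusted p = 0.0424). The call was lost without the first CTRL EV library (-0.46, adjusted p = 0.0873), the second CTRL EV library (-0.57, adjusted p = 0.0568), the first miR-122 KO EV library (-0.40, adjusted p = 0.0669) or the second (-0.41, adjusted p = 0.075). In Rab27a KD EVs the log2 fold change was -0.24 (adjusted p = 0.307). miR-450a-5p had 48.6 and 99.8 CPM in Rab27a KD EVs and 86.3 and 85.6 CPM in miR-122 KO EVs, against 116 and 109 CPM in CTRL EVs. Its log2 fold change of -0.71 in Rab27a KD EVs missed the threshold (adjusted p = 0.0648), and it was called without the second Rab27a KD EV library (-1.56, adjusted p = 0.0114) and without the first miR-122 KO EV library (-0.71, adjusted p = 0.0384). With the GC trend removed it was 0.08. In miR-122 KO EVs it was -0.01 (95% interval -0.31 to 0.28). miR-542-5p had 3 and 0 counts in Rab27a KD EVs and 20 and 26 in miR-122 KO EVs, against 19 and 36 in CTRL EVs. Its share was 1.23-fold lower in Rab27a KD than in CTRL EVs, with an exact 95% interval from 0.400 to 6.16, so a difference was not detectable at this depth.

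Between the EVs of the modified lines, 2 members differed, with 40.4% of all miRNAs called, 22.7% as higher and 17.6% as lower. miR-424-3p was higher in miR-122 KO than in Rab27a KD EVs by 1.43 (SE 0.32, edgeR adjusted p = 0.00258) on the log2 scale and miR-450b-5p by 1.67 (SE 0.30, adjusted p = 0.000572). Both were smaller with the GC trend removed, at 0.95 (adjusted p = 0.0302) and 0.90 (adjusted p = 0.0134). Without the first Rab27a KD EV library the miR-424-3p call was lost (1.13, adjusted p = 0.0516). The other 5 members had log2 fold changes between -0.32 and 0.70.

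Next, EVs were set against the cells that released them, in 1 fit over the 12 libraries. In the miR-122 KO line 4 members were higher in EVs than in cells and 1 was lower, with 59.1% of 574 miRNAs called, 33.3% as higher and 25.8% as lower. miR-450b-5p had 139 and 131 CPM in miR-122 KO EVs against 18.4 and 23.9 CPM in miR-122 KO cells, 5.56-fold higher in EVs (log2 fold change 2.48, SE 0.16, edgeR adjusted p = 1.84e-19). miR-424-3p was 2.73-fold higher in EVs (log2 fold change 1.45, SE 0.17, adjusted p = 1.72e-10). miR-450a-5p was at 0.73 (SE 0.16, adjusted p = 0.000109) and miR-424-5p at 0.53 (SE 0.14, adjusted p = 0.000731). miR-542-3p had 250.1 and 251 CPM in miR-122 KO EVs against 498 and 556 CPM in miR-122 KO cells and was lower in EVs by a log2 fold change of -1.27 (SE 0.13, adjusted p = 2.65e-12). With the GC trend removed, miR-450b-5p was at 1.16 (adjusted p = 1.41e-11) and miR-424-3p at 1.48 (adjusted p = 3e-15), whereas miR-424-5p turned to -0.32 (adjusted p = 0.0245) and miR-450a-5p to -0.37 (adjusted p = 0.0353). Without a filter on low counts these last 2 were not called (0.15 and 0.36, adjusted p = 0.679 and 0.173). miR-503-5p, at 0.25 (adjusted p = 0.0683), was called higher without the first miR-122 KO cell library (0.44, adjusted p = 0.00548) and without the first CTRL EV library (0.31, adjusted p = 0.0484). miR-542-5p, at -0.70 (adjusted p = 0.0545), was called lower without the first miR-122 KO cell library (-0.75, adjusted p = 0.0405) and without the second miR-122 KO EV library (-1.01, adjusted p = 0.0415).

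In the Rab27a KD line, where the comparison rests on the shallowest libraries, 2 members were lower in EVs than in cells, with 19.3% of all miRNAs called, 12% as lower and 7.32% as higher. miR-424-5p had 455 and 710 CPM in Rab27a KD EVs against 594 and 607 CPM in Rab27a KD cells, with overlapping groups. Its log2 fold change was -0.52 (SE 0.16, edgeR adjusted p = 0.0181), and -0.04 (adjusted p = 0.944) with total counts, since total counts in place of TMM moved the log2 values of this comparison by 0.48. miR-450b-5p was at -0.85 (SE 0.31, adjusted p = 0.0459). The miR-424-5p call was lost without the first Rab27a KD EV library (-0.42, adjusted p = 0.143) or the second Rab27a KD cell library (-0.56, adjusted p = 0.0587). The miR-450b-5p call was lost without the same 2 libraries (-0.80 and -0.85, adjusted p = 0.2 and 0.0968) and without the first CTRL cell library (-0.86, adjusted p = 0.0613). Neither was called with DESeq2's size factors in edgeR (adjusted p = 0.0898 and 0.0969). miR-503-5p had 1014 and 1033 CPM in Rab27a KD EVs against 598 and 620 CPM in Rab27a KD cells, without overlap. Its log2 fold change was 0.27 (adjusted p = 0.174), and 0.75 (adjusted p = 7.02e-05) with total counts.

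In the CTRL line 4 members were lower in EVs than in cells, with 53.7% of all miRNAs called, 22.8% as lower and 30.8% as higher. miR-424-5p had 542 and 431 CPM in CTRL EVs against 1060 and 1089 CPM in CTRL cells, a log2 fold change of -1.28 (SE 0.14, edgeR adjusted p = 9.2e-12). miR-542-3p was at -0.54 (SE 0.13, adjusted p = 0.00032), miR-450b-5p at -0.48 (SE 0.14, adjusted p = 0.00342) and miR-503-5p at -0.45 (SE 0.12, adjusted p = 0.00124). Without the first CTRL EV library the miR-503-5p call was lost (-0.33, adjusted p = 0.127), and without the second the miR-450b-5p call (-0.37, adjusted p = 0.126), which was also lost with total counts (-0.34, adjusted p = 0.0581). miR-424-3p, miR-450a-5p and miR-542-5p had log2 values between -0.04 and 0.14, and each changed sign under at least 1 alternative.

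**Figure D4:**
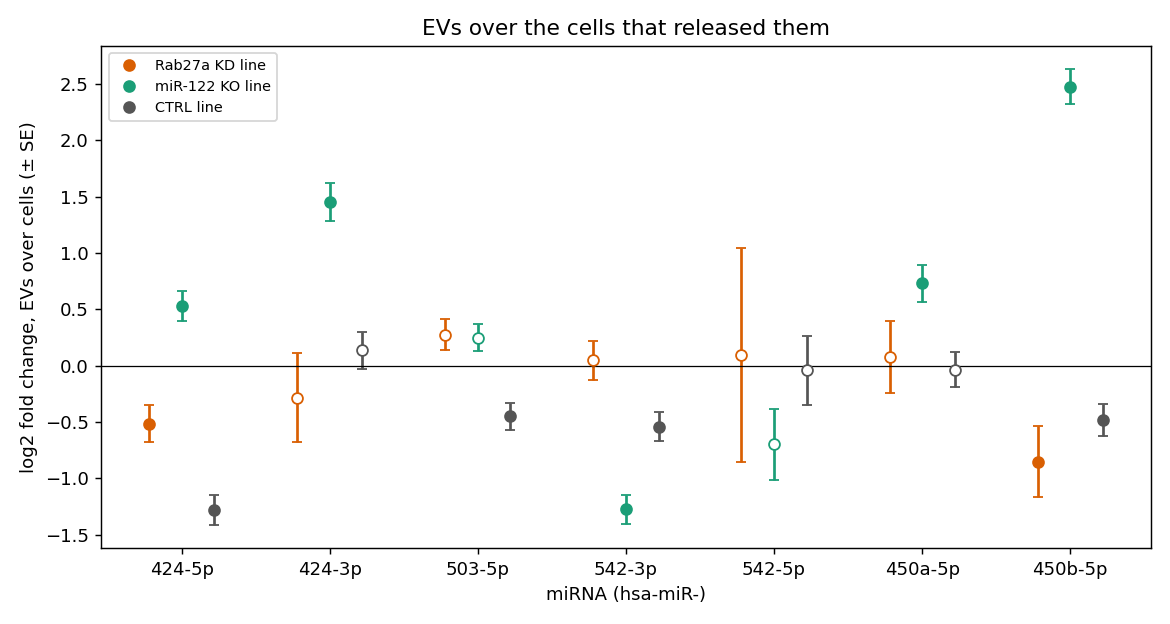
Log2 fold change of each cluster miRNA in EVs over the cells that released them, for the Rab27a KD, miR-122 KO and CTRL lines. Bars are the standard error of the edgeR fit and filled points have an adjusted p under 0.05. miR-450b-5p stands at 2.48 in the miR-122 KO line, at -0.85 in the Rab27a KD line and at -0.48 in the CTRL line.

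Whether the EV to cell difference itself differed between lines was tested by interaction terms. Larger and smaller here mean a higher or lower signed log2 value of EVs over cells, not a wider or narrower gap. Between the miR-122 KO and CTRL lines it differed for 6 members, with 48.3% of all miRNAs called, 24.9% as larger and 23.3% as smaller. It was larger in the miR-122 KO line for miR-450b-5p (2.96, SE 0.21, edgeR adjusted p = 4.09e-17), miR-424-5p (1.81, SE 0.19, adjusted p = 1.87e-11), miR-424-3p (1.32, SE 0.23, adjusted p = 4.54e-06), miR-450a-5p (0.77, SE 0.22, adjusted p = 0.00389) and miR-503-5p (0.70, SE 0.17, adjusted p = 0.00048). It was smaller there for miR-542-3p (-0.73, SE 0.18, adjusted p = 0.000617). The EV over cell value of miR-542-3p was -1.27 in the miR-122 KO line and -0.54 in the CTRL line, so it lay further below 0 in the knockout. With the GC trend removed, miR-450a-5p was at -0.20 (adjusted p = 0.538) and miR-450b-5p at 1.61 (adjusted p = 6.17e-12). Between the Rab27a KD and CTRL lines it differed for 3 members, with 18.6% of all miRNAs called, 4.36% as larger and 14.3% as smaller. The values were 0.77 (SE 0.21, adjusted p = 0.00649) for miR-424-5p, 0.72 (SE 0.18, adjusted p = 0.00214) for miR-503-5p and 0.59 (SE 0.21, adjusted p = 0.0462) for miR-542-3p. The miR-424-5p call was lost without the second CTRL cell (0.66, adjusted p = 0.0597), Rab27a KD cell (0.70, adjusted p = 0.0682), CTRL EV (0.55, adjusted p = 0.118) or Rab27a KD EV library (0.42, adjusted p = 0.291). The miR-503-5p call was lost without the second CTRL cell (0.61, adjusted p = 0.0703), the second Rab27a KD cell (0.65, adjusted p = 0.0556) or the first CTRL EV library (0.55, adjusted p = 0.0953). The miR-542-3p call was lost when any library was left out except the second of the miR-122 KO cells or of the Rab27a KD EVs, with values from 0.32 to 0.82.

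Averaged over the 3 lines, 43% of all miRNAs were called between EVs and cells, 21.6% as higher and 21.4% as lower, and so were 4 members. miR-542-3p was lower in EVs at -0.59 (SE 0.08, edgeR adjusted p = 2.75e-08) and miR-424-5p at -0.42 (SE 0.08, adjusted p = 2.88e-05). With total counts miR-424-5p was not called (-0.15, adjusted p = 0.183). miR-424-3p at 0.43 (SE 0.17, adjusted p = 0.0294) and miR-450b-5p at 0.38 (SE 0.14, adjusted p = 0.0206) were above 0 in this mean, although miR-450b-5p was called lower in EVs in the Rab27a KD and CTRL lines (-0.85 and -0.48, adjusted p = 0.0459 and 0.00342). miR-450b-5p was not called with the GC trend removed (0.07, adjusted p = 0.807) or without a filter (0.12, adjusted p = 1). miR-424-3p was not called without a filter (0.17, adjusted p = 0.919), with at least 50 counts (0.38, adjusted p = 0.0621) or after thinning, in which every library of a fit was drawn down to the total of the shallowest among them (0.58, adjusted p = 0.122). Both calls were also lost without the first Rab27a KD cell library (0.23 and 0.22, adjusted p = 0.311 and 0.235), the second miR-122 KO cell library (0.35 and 0.29, adjusted p = 0.0956 and 0.102) or the first (0.42 and 0.33, adjusted p = 0.105 and 0.104) or second Rab27a KD EV library (0.16 and 0.17, adjusted p = 0.707 and 0.604). Over the miR-122 KO and CTRL lines alone, a setting chosen after seeing the data, they were 0.73 and 0.94 (adjusted p = 4.84e-06 and 5.88e-08), with miR-542-3p at -0.97 and miR-424-5p at -0.44.

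Ratios between 2 members within a library need no scaling factor. The count of miR-424-5p over miR-424-3p, the arms of 1 hairpin shown above, was 15.0 and 13.4 in Rab27a KD EVs against 19.2 and 14.3 in Rab27a KD cells. It was 3.96 and 4.33 in miR-122 KO EVs against 8.92 and 6.98 in miR-122 KO cells, and 5.78 and 4.46 in CTRL EVs against 13.8 and 13.5 in CTRL cells. In the miR-122 KO and CTRL lines every EV library lay below every cell library, and in the Rab27a KD line the groups overlapped. The mean log2 ratio was lower in EVs by -0.89 (exact permutation test of fraction within lines, 2-sided, p = 0.00926, the smallest that this design can give, adjusted p = 0.037 over 4 ratios). The call was lost without the first Rab27a KD cell library (-0.82), the first Rab27a KD EV library (-0.91) or the second (-0.87), each with an exact permutation adjusted p = 0.0741. The arms differ in GC content, at 36.4% for the 5p arm and 52.4% for the 3p arm.

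The other 3 ratios did not pass that test. The count of miR-503-5p over miR-424-5p was 2.23 and 1.45 in Rab27a KD EVs against 1.01 and 1.02 in Rab27a KD cells, and 1.52 and 2.06 in CTRL EVs against 0.991 and 0.983 in CTRL cells. In the miR-122 KO line it was 1.92 and 1.75 in EVs against 2.29 and 2.16 in cells, so this line ran the other way (mean log2 difference 0.46, exact permutation adjusted p = 0.148). The count of miR-450a-5p over miR-450b-5p was 0.621 and 0.653 in miR-122 KO EVs against 2.19 and 2.09 in miR-122 KO cells, and 0.599 and 0.669 in CTRL EVs against 0.453 and 0.474 in CTRL cells. In Rab27a KD EVs it was 1.00 and 1.42, from 25 and 20 counts in both libraries together, against 0.774 and 0.547 in Rab27a KD cells (mean log2 difference -0.14, exact permutation adjusted p = 0.731). The count of miR-542-3p over miR-542-5p ran from 29.2 to 56.3 in the miR-122 KO and CTRL EV libraries against 50.7 to 62.5 in the cells of those lines (mean log2 difference over the 3 lines -0.31, exact permutation adjusted p = 0.63).

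**Figure D5:**
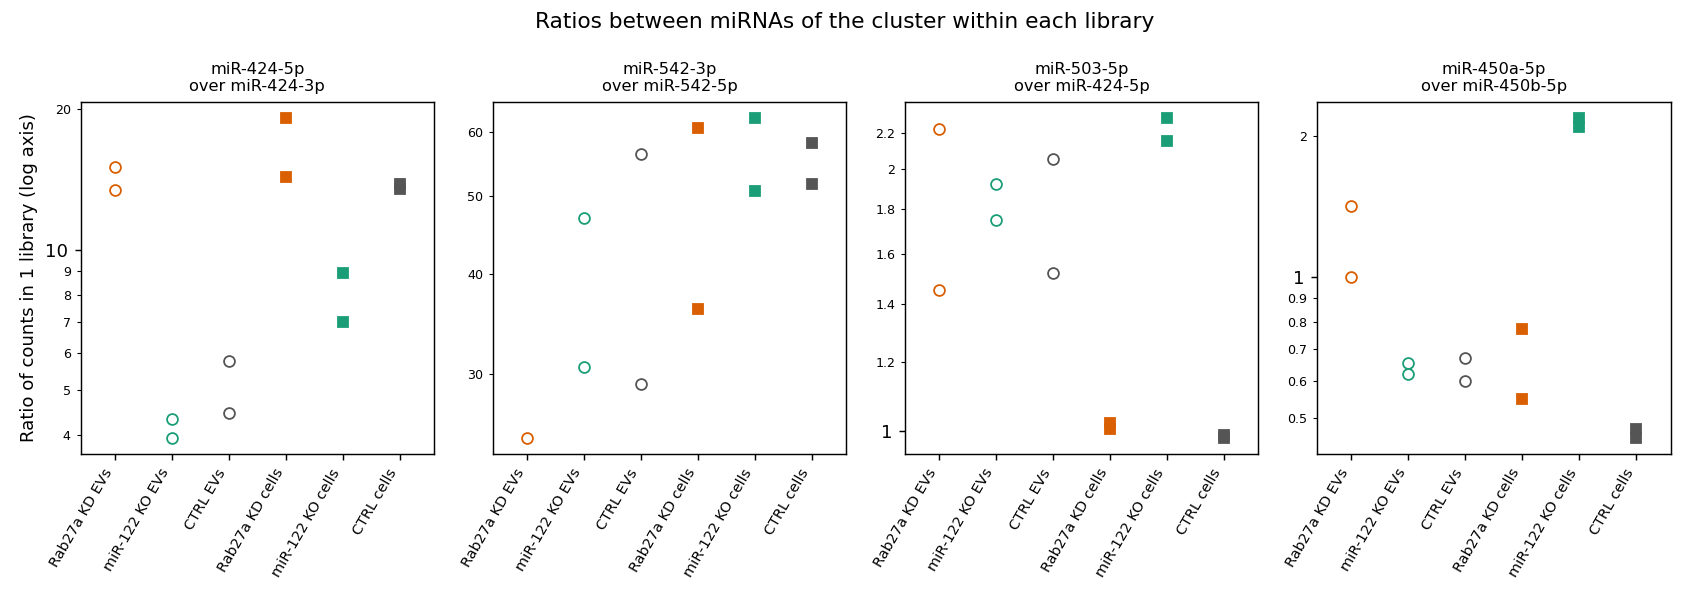
Ratio of the counts of 2 cluster miRNAs within each library, on log axes. Open circles are EV libraries and filled squares cell libraries; the Rab27a KD EV library with 0 counts of miR-542-5p has no point in the second panel. miR-424-5p over miR-424-3p is between 3.96 and 5.78 in the EVs of the miR-122 KO and CTRL lines and between 6.98 and 13.8 in their cells.

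The remaining arms of the hairpins were rare. Of 4 such arms, miR-503-3p, miR-450a-1-3p, miR-450a-2-3p and miR-450b-3p, 3 could be tested in cells. In Rab27a KD cells 2 of the 3 fell, where 29.5% of all miRNAs were called lower. The 3 had, in miR-122 KO cells, log2 fold changes from -1.01 to 0.19, with edgeR adjusted p from 0.159 to 0.66. miR-450a-1-3p had 3 and 9 counts in Rab27a KD cells and 75 and 54 in miR-122 KO cells, against 116 and 100 in CTRL cells, a log2 fold change of -2.28 (SE 0.43, adjusted p = 0.000152) in the knockdown. In EVs it had 0 and 0 counts in the Rab27a KD line and 31 and 37 in the miR-122 KO line, against 32 and 24 in the CTRL line. With the limit of 3 counts over both libraries that 0 counts allow, its share was at least 1.25-fold lower than in CTRL EVs. This bound takes the CTRL EV counts as exact, so it does not settle whether the share differed. The edgeR call in Rab27a KD EVs (adjusted p = 0.0491) was lost with total counts (adjusted p = 0.0562). It was also lost with the GC trend removed (adjusted p = 0.118) and with a replicate term (adjusted p = 0.0845). miR-503-3p had 3 counts in Rab27a KD cells and 47 in CTRL cells, 4.31-fold lower as a share (exact 95% interval 1.39 to 21.6). Its edgeR call (adjusted p = 0.0154) was lost with DESeq2 (adjusted p = 0.117) and without the second CTRL cell library (adjusted p = 0.0765) or the first (adjusted p = 0.169) or second Rab27a KD cell library (adjusted p = 0.0582).

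Among the miR-15/16 relatives with the seed of miR-424-5p, 5 of 6 could be tested. This list was chosen with earlier results of these data known, so its counts are descriptions. In Rab27a KD cells 4 of the 5 fell and in miR-122 KO cells also 4, where 29.5% and 34.6% of all miRNAs were called lower. The medians were -1.01 and -1.47 on the log2 scale against -0.11 and -0.08 for all miRNAs. miR-16-5p, the most abundant, averaged 4416 ± 141 CPM in Rab27a KD cells and 804 ± 186 CPM in miR-122 KO cells, against 7062 ± 374 CPM in CTRL cells (SD, n = 2 each). Its log2 fold change was -0.66 (SE 0.11, edgeR adjusted p = 3.96e-05) in the knockdown and -2.81 (SE 0.12, adjusted p = 6.99e-14) in the knockout. miR-15a-5p fell by 1.01 (SE 0.12) and 1.26 (SE 0.12) on the log2 scale. miR-15b-5p did not pass the test in Rab27a KD cells (-0.26, adjusted p = 0.129) and fell by 1.48 (SE 0.14) in miR-122 KO cells. miR-195-5p fell in both, by 1.59 (SE 0.19) and 1.47 (SE 0.17). The fourth call in Rab27a KD cells was miR-497-5p at -1.66 (SE 0.35), a gene named after its value was seen. With the GC trend removed, miR-16-5p, miR-15a-5p, miR-15b-5p and miR-195-5p were still called lower in miR-122 KO cells, at -2.58, -0.69, -0.91 and -1.07. In EVs the 5 tested relatives gave 1 call, miR-15b-5p, which was higher in Rab27a KD EVs at a log2 fold change of 1.23 (SE 0.13, adjusted p = 6.88e-06). In miR-122 KO EVs the 5 had log2 fold changes from -0.23 to 0.14, with adjusted p from 0.107 to 0.949. Over all miRNAs 46.3% were called in Rab27a KD EVs and 41.2% in miR-122 KO EVs. In the miR-122 KO line 3 of the 5 were higher in EVs than in cells, miR-16-5p by 2.28 (SE 0.12) on the log2 scale. Over all miRNAs 33.3% were called higher and 25.8% lower there. In that line miR-497-5p was lower in EVs (-1.15, SE 0.34, adjusted p = 0.00274), except without the second miR-122 KO EV library (-0.84, adjusted p = 0.0914).

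The miR-106a-363 cluster is transcribed from the same strand of chromosome X, with MIR106A at chrX:134170198-134170278, and includes relatives of the miR-17 family that promote proliferation. Its arms were listed with earlier results of these data known, so the counts of calls are descriptions. In Rab27a KD cells 4 of 4 tested arms rose, where 24.3% of all miRNAs were called higher. miR-363-3p had 528 and 512 counts in Rab27a KD cells against 14 and 7 in CTRL cells (log2 fold change 7.48, SE 0.25, edgeR adjusted p = 8.77e-15). miR-20b-5p averaged 83.7 ± 6.42 CPM in Rab27a KD cells against 2.97 ± 0.266 CPM in CTRL cells (log2 fold change 4.82, SE 0.22). miR-106a-5p rose by 2.004 (SE 0.18) and miR-18b-5p by 2.80 (SE 0.55) on the log2 scale, the call of miR-18b-5p being lost without the first Rab27a KD cell library (2.54, adjusted p = 0.0651). Of the same 4, 3 fell in miR-122 KO cells, where 34.6% of all miRNAs were called lower. Among them miR-106a-5p, at -0.72 (adjusted p = 0.00363), was not called with the GC trend removed (-0.37, adjusted p = 0.117) or after thinning (-0.52, adjusted p = 0.0932). miR-363-3p had 0 counts in both libraries. With the limit of 3 counts over the group, and the CTRL counts taken as exact, that is at least 6.11-fold lower than in CTRL cells. miR-20b-5p had 3 counts against 68, 19.8-fold lower as a share (exact 95% interval 6.49 to 98.4). In EVs the 3 testable arms were all higher in Rab27a KD EVs and all lower in miR-122 KO EVs than in CTRL EVs, with 18.9% of all miRNAs called higher in the knockdown and 22.3% lower in the knockout. miR-20b-5p in miR-122 KO EVs (-1.69, adjusted p = 0.0061) was not called after thinning (-3.57, adjusted p = 0.151). The miR-106a-5p call in Rab27a KD EVs (1.26, SE 0.44, edgeR adjusted p = 0.0311) rested on 15 and 6 counts there. It was lost without a filter (0.96, adjusted p = 0.0923) and with a replicate term (1.26, adjusted p = 0.0516). It was also lost without the first CTRL EV (1.15), the second CTRL EV (1.12) or the first Rab27a KD EV library (0.34).

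The 12 libraries also show which miRNAs had profiles like those of the members, by Pearson's r of log2 CPM over the 12 libraries, which share 3 lines and 2 fractions and are therefore not independent. Among members, r was 0.795 between miR-424-5p and miR-503-5p, 0.912 between miR-424-3p and miR-450a-5p, 0.899 between miR-424-3p and miR-450b-5p, and 0.362 between the arms miR-424-5p and miR-424-3p. miR-542-3p had r = -0.02 with miR-424-5p and 0.531 with its own opposite arm. Among the other tested miRNAs, the 3 most like miR-424-5p were miR-7-5p (0.959), miR-140-5p (0.914) and miR-15a-5p (0.886). For miR-503-5p they were miR-15a-5p (0.900), miR-7-5p (0.845) and miR-148b-3p (0.810). For miR-542-3p they were miR-452-5p (0.962), miR-4746-5p (0.918) and miR-138-5p (0.917).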

How the data were processed

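The labels' protocols name Trizol for cells and Trizol LS for EVs, with library ligation that needs a 5′ monophosphate, an end that mature miRNAs carry. The values deposited by the authors are raw counts per mature miRNA. The submitters' processing notes list cutadapt, Bowtie and hg19. Mismatches allowed and the treatment of multiply matching reads are not stated, so near-identical relatives may share reads.

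Lines were compared within the 6 libraries of a fraction and EVs with cells over all 12, by edgeR's robust quasi-likelihood test (R 4.3.3, edgeR 4.0.16) with TMM, filterByExpr and Benjamini-Hochberg adjustment over every miRNA tested. SE is the log2 fold change over the root of F, and 95% intervals span 1.96 SE. CPM are counts over the library total, without TMM. Ratio tests used counts + 0.5. Alternatives were DESeq2 1.42.0, its size factors in edgeR, total counts, no filter, at least 50 counts, thinning to the shallowest library, a lowess GC offset (span 0.5), other sets of libraries, a replicate term and leaving out each library. The code was tested on simulated data. Named were the 7 members, up to 4 of the most abundant tested entries of 3 lists (other arms, miR-15/16 relatives, miR-106a-363) and the 3 miRNAs closest to each of miR-424-5p, miR-503-5p and miR-542-3p. Members and lists were chosen with earlier results of these data known.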

Additional observations from a re-analysis of the deposited data

Results flagged for a closer look

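The EV to cell difference itself differed between lines, by an interaction term in the edgeR fit over 12 libraries, for these members. Between the miR-122 KO and CTRL lines the differences were 2.96 for miR-450b-5p, 1.81 for miR-424-5p, 1.32 for miR-424-3p, 0.77 for miR-450a-5p, 0.70 for miR-503-5p and -0.73 for miR-542-3p on the log2 scale (edgeR adjusted p between 4.09e-17 and 0.00389). Between the Rab27a KD and CTRL lines they were 0.77 for miR-424-5p, 0.72 for miR-503-5p and 0.59 for miR-542-3p (adjusted p = 0.00649, 0.00214 and 0.0462). These 3 calls were lost in 4, 3 and 10 of the 12 fits that left out 1 library each, with 0 to 3 members called. With a smooth GC trend removed, the miR-450a-5p difference between the miR-122 KO and CTRL lines was -0.20 (adjusted p = 0.538), and after thinning to the shallowest library it was 1.55 (adjusted p = 0.0703) and that of miR-503-5p 0.55 (adjusted p = 0.103). The CTRL EV libraries that enter all of these also held the high sums of blood and stromal markers given above.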

How the results depend on the processing

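Of 1914 values of single miRNAs under alternatives, 1677 kept their direction and their side of the threshold, 116 lost the call, 40 gained one and 81 changed sign. Among these are fits without a library of a group outside the comparison. Such fits bear on it only through the shared filter, scaling and spread, so the share kept is not a measure of robustness. Total counts in place of TMM moved log2 fold changes by -0.34 in miR-122 KO over CTRL cells, -0.33 in miR-122 KO over Rab27a KD cells, -0.37 in miR-122 KO and 0.12 in Rab27a KD over CTRL EVs, and by 0.48, 0.20 and 0.14 for EVs over cells in the Rab27a KD, miR-122 KO and CTRL lines. The counts of called members below stand without the share called over all miRNAs, which also moved between fits. Rab27a KD over CTRL EVs had 226 calls among 488 miRNAs, and 145 among 223 after thinning. A steady member count is therefore not a measure of how firm a result is. Depth limits above all the Rab27a KD EV values. Where a cause of a change is not part of the alternative itself, the cause was not tested.

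With total counts the reversed log2 values were -0.10 for miR-542-3p and -0.12 for miR-542-5p in miR-122 KO cells, -0.25 for miR-424-3p in miR-122 KO EVs, and for EVs over cells 0.10 for both miR-450a-5p (0.1028) and miR-542-5p (0.09765) in the CTRL line and 0.19 for miR-424-3p in the Rab27a KD line. Members called were then 5 in miR-122 KO over CTRL EVs and 5 in miR-122 KO over Rab27a KD EVs. For CTRL EVs over cells, DESeq2 gave 0.009856 for miR-450a-5p and 0.002273 for miR-542-5p, and its size factors in edgeR 0.01005 and 0.005708; these called 1 and 0 members in the Rab27a KD line. Without a filter, Rab27a KD over CTRL EVs was -0.1575 for miR-503-5p and -0.1551 for miR-424-5p with 4 members called, the EV over cell value was -0.1355 for miR-503-5p in the miR-122 KO line and -0.2391 for miR-424-3p in the CTRL line, and 1 member was called in the Rab27a KD line. With at least 50 counts, EVs over cells in the Rab27a KD line were -0.04362 for miR-542-3p and -0.01126 for miR-450a-5p. With all 12 libraries, Rab27a KD over CTRL EVs were -0.009783 for miR-503-5p and -0.005887 for miR-424-5p. With the 4 libraries compared only, 1 member was called for EVs over cells in the Rab27a KD line. Thinning gave 0.03271 for miR-542-3p in Rab27a KD EVs, 0.04238 for miR-503-5p in miR-122 KO EVs, 0.4934 and -0.2193 for miR-424-3p in EVs over cells of the Rab27a KD and CTRL lines, and 0.7127 for its difference between these lines. Members called after thinning were 0 in miR-122 KO EVs, 1 in the Rab27a KD line, 2 in the CTRL line, 2 over the mean of lines and 3 for the miR-122 KO minus CTRL difference.

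With the GC offset, miR-450a-5p was 0.6044 in miR-122 KO cells, 0.1465 in miR-122 KO EVs, 0.08439 in Rab27a KD EVs, -0.3713 in EVs over cells of the miR-122 KO line and -0.1972 in that line's difference from CTRL. miR-424-5p was -0.3197 in EVs over cells of the miR-122 KO line and 0.07142 in miR-122 KO EVs, where miR-450b-5p was 0.02573. miR-424-3p was 0.1727 in EVs over cells of the Rab27a KD line and 0.1489 in that line's difference from CTRL. Members called were 4 in Rab27a KD and 0 in miR-122 KO over CTRL EVs, 4 between these EVs and 1 in the Rab27a KD line.

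Samples of the same number showed no shared deviation: the correlations of their deviations ran from -0.123 to 0.0763, and the main fits used no pairing. This check cannot show whether samples of 1 number came from the same culture. With a replicate block 97 of 103 single values kept their call, 5 lost and 1 gained it; the block called 0 members in miR-122 KO over CTRL EVs and 1 in EVs over cells of the Rab27a KD line. The replicate block with the GC offset gave 0.6062, 0.1482, 0.07975, -0.3698 and -0.195 for miR-450a-5p, -0.3195 and 0.07084 for miR-424-5p, 0.02585 for miR-450b-5p and 0.1645 and 0.1405 for miR-424-3p, in the order of the GC offset values above, with the same counts 4, 0, 4 and 1.

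Leaving out each library gave 6 to 7 called members in Rab27a KD and 5 to 6 in miR-122 KO over CTRL cells, 1 to 3 and 0 to 1 in EVs, 1 to 3 in miR-122 KO over Rab27a KD EVs, 3 to 5 in these lines' cells, 0 to 2, 5 to 7 and 3 to 4 for EVs over cells in the Rab27a KD, miR-122 KO and CTRL lines, 2 to 4 over the mean of lines, and 0 to 3 and 6 to 6 for the differences of the Rab27a KD and miR-122 KO lines from CTRL. Sign changes were seen in Rab27a KD over CTRL EVs for miR-424-5p (-0.4404 to 0.3385), miR-503-5p (-0.1036 to 0.1405) and miR-542-5p (-7.566 to 0.3765), and in miR-122 KO over CTRL EVs for miR-424-3p (-0.05135 to 0.1162), miR-450b-5p (-0.2583 to 9.342e-05) and miR-542-5p (-0.8213 to 0.01373). For EVs over cells they were seen in the CTRL line for miR-424-3p (-0.07546 to 0.2253), miR-450a-5p (-0.248 to 0.002402) and miR-542-5p (-0.5138 to 0.3622), in the Rab27a KD line for miR-450a-5p (-0.7035 to 0.3101), miR-542-3p (-0.3943 to 0.1004) and miR-542-5p (-7.963 to 0.9521), and in that line's difference from CTRL for miR-450a-5p (-0.4892 to 0.5166) and miR-542-5p (-7.757 to 1.168). The log2 ratio of the miR-424 arms ran from -0.9613 to -0.8225 and that of the miR-542 arms from -0.7103 to 0.0861. Without the Rab27a KD line the miR-424 arm ratio was -1.18 in a design too small to pass the threshold. In the same setting, there chosen after seeing the data, the mean over lines gave 415 called miRNAs.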
